A study of Mus musculus with 9 samples.

Results

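Naive CD8 T cells were selected in a CITE-seq data set of mouse spleen, in which transcripts and oligonucleotide-tagged antibodies were counted in the same single cells. A cell barcode was taken when it held at least 2 unique molecular identifiers (UMIs) of Cd3d, Cd3e and Cd3g together, at least 2 of Cd8a and Cd8b1 together, none of Cd4, at most 1 of Cd79a, at least 1 of Lef1 and Dapl1 together, and at most 1 each of Ccl5 and Nkg7. In all, 1324 cells met the rule among 45217 cells that could be given to a replicate (2.93%). Levels of the genes in the rule are therefore given below as a description only.

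Naive CD8 T cells are mature T cells that have left the thymus and have not yet met their antigen. They recirculate between blood, spleen and lymph nodes with the help of the chemokine receptor Ccr7 and the egress receptor S1pr1, depend on interleukin 7 and on weak contact with self peptides on MHC class I, and keep the transcription factors Lef1 and Tcf7. Once activated they divide and become cytotoxic effector and memory cells. IRE1, encoded by Ern1, is a sensor of protein folding stress in the endoplasmic reticulum (ER) whose RNase splices Xbp1 mRNA; spliced XBP1 then induces ER chaperones and the secretory machinery.

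The groups were total splenocytes of wild-type mice (WT, 4 replicates), of mice with 1 allele of IRE1 R594C (R594C/+, 4 replicates) and of mice with that change on both alleles (R594C/R594C, 2 replicates). No treatment, age or promoter-driven transgene is given in the labels, the change is not limited to T cells by any label, and cells had been sorted with the dead-cell dye DAPI before capture. The question in the series' design is whether this amino acid change alters the immune compartment. Each genotype was stained and captured as 1 batch and its replicates were told apart by hashtags, so genotype, capture and staining cannot be told apart, and p-values measure only the spread between hashtagged replicates, which the labels do not tie to single animals. By Xist, replicate 2 of WT, all 4 replicates of R594C/+ and replicate 2 of R594C/R594C held female RNA (798 to 1531 CPM, RNA UMIs scaled to a common total per replicate, in naive CD8 T cells) and the other 4 did not (0 to 2.80 CPM), so the contrast of R594C/+ with WT was also largely one of sex.

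The 4 hashtag barcodes decided which replicate a cell was given to, and the CD8a and CD8b antibody barcodes are the readout against which the transcript rule can be checked. They are the designed 15-base oligonucleotide sequences of the submitters' feature list, written 5′ to 3′. In the hashtags, capitals mark bases that none of the other 3 hashtags has at that position, and any pair differed at 11 to 13 positions. In the CD8a and CD8b tags, capitals mark the 7 positions at which the pair differs.
Hashtag1: aCCcAcCagtaAGaC
Hashtag2: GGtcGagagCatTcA
Hashtag3: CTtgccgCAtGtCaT
Hashtag4: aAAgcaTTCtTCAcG
CD8a: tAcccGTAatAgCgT
CD8b: tTcccTCTatGgAgC

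The 3 captures held 51451 barcodes, and 50827 of them passed the limits of 200 detected genes or more and no more than 10% of UMIs from mitochondrial genes. Naive CD8 T cells had a median of 3852 RNA UMIs (951 to 26701) and 1458.5 genes. Although 236 barcodes occurred in more than 1 capture, none of them was shared between captures among naive CD8 T cells. The summed RNA of naive CD8 T cells ranged from 151300 to 1518003 UMIs in 9 replicates and was 28080 UMIs, from 7 cells, in R594C/+ replicate 1. That replicate enters the shares but no gene or antibody test, which used 4 WT, 3 R594C/+ and 2 R594C/R594C replicates.

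Surface protein matched the label. The CD8b tag exceeded the CD4 tag in 1315 of 1324 naive CD8 T cells (99.3%), against 0.218% of 1373 naive CD4 T cells chosen by the same kind of rule. The median CD8b tag was 69 UMIs per cell (5th to 95th percentile 29 to 110). It was 42 in 1498 memory-like CD8 T cells and 0 in naive CD4 T cells and in 22556 B cells. Memory-like CD8 T cells met the same Cd3, Cd8, Cd4 and Cd79a limits and held at least 2 Ccl5 UMIs. Their rule set no limit on Lef1, Dapl1 or Nkg7. The median CD4 tag was 0 in naive CD8 and 58 in naive CD4 T cells. All 5 marker transcripts were present: over the 9 replicates with enough cells, Cd8b1 stood at 857 ± 57.0 CPM, Cd8a at 366 ± 51.6, Lef1 at 769 ± 97.3, Dapl1 at 292 ± 74.0 and Emb at 1184 ± 167 (mean ± SD, n = 9).

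At the edges of the rule, 251 naive CD8 T cells had exactly 2 UMIs of Cd8a and Cd8b1 and a median CD8b tag of 64 UMIs, and the 258 cells with 1 such UMI, just outside, had 33. By contrast, 494 cells stood outside only for having 2 Nkg7 UMIs and had the same median CD8b tag, 67, as the 625 inside with 1 Nkg7 UMI. A single Lef1 or Dapl1 UMI admitted 178 cells (median CD8b tag 66.5) and 91 cells without one were left out (64). The 23 cells with 1 Cd4 UMI had a median CD4 tag of 50, and 111 naive CD8 T cells carried 1 Cd79a UMI.

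Homing and survival receptors were among the transcripts the rule did not use. Ccr7 was at 911 ± 96.3 CPM in naive CD8, 744 ± 133 in naive CD4 and 431 ± 109 in memory-like CD8 T cells, and naive CD8 T cells were the highest in 9 of 9 replicates. S1pr1 was at 478 ± 92.2 CPM, below naive CD4 T cells (618 ± 99.3) and above memory-like CD8 T cells (181 ± 35.1) in 9 of 9 replicates each. Il7r, the interleukin 7 receptor chain, was at 763 ± 115 CPM and did not separate naive from memory-like CD8 T cells (739 ± 109, higher in 4 of 9 replicates). These populations were cut by transcript rules from the same cells, so the levels carry no test.

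Transcripts of CD8 lineage choice and of effector cells gave a second description. Runx3, a transcription factor of the CD8 lineage, was at 188 ± 34.0 CPM against 106 ± 27.2 in naive CD4 T cells, whereas Zbtb7b, the factor of the CD4 lineage, was at 0.717 ± 1.14 against 30.5 ± 9.06. Cd40lg, a CD4 helper ligand, was at 4.66 ± 5.29 against 94.2 ± 16.4 CPM. The memory genes Il2rb, Cxcr3 and Eomes were at 82.2 ± 19.5, 3.49 ± 2.28 and 35.2 ± 32.7 CPM in naive CD8 T cells. They were at 421 ± 47.9, 57.6 ± 12.9 and 225 ± 42.6 CPM in memory-like CD8 T cells and higher there in 9 of 9 replicates. The wide SD of Eomes came from a range of 7.48 to 112 CPM over replicates.

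Among genes with at least 50 CPM, the gut-homing chemokine receptor Ccr9 had the highest ratio over naive CD4 T cells outside the rule's own genes. It was at 77.7 ± 18.9 CPM in naive CD8, 2.79 ± 4.44 in naive CD4 and 4.01 ± 1.91 in memory-like CD8 T cells, ratios of 27.8 and 19.4. Bend4 and the killer lectin receptor gene Klrd1 followed over naive CD4 T cells (ratios 23.4 and 20.6), but neither set naive apart from memory-like CD8 T cells (ratios 0.911 and 0.694). Ly6c2 (10.2), Fam241a (9.67), Cdc14b (5.42) and Atp8b4 (5.13) had the next ratios over naive CD4 T cells. Over memory-like CD8 T cells the next ratios were those of Igfbp4 (15.2), a secreted binding protein of insulin-like growth factors, and Ifngr2 (10.5), an interferon gamma receptor chain. Both were as high or higher in naive CD4 T cells (280 ± 68.6 and 190 ± 45.3 CPM against 159 ± 34.1 and 153 ± 35.5). Lcn2, a neutrophil gene, also ranked there (ratio 4.93), although 364 of its 378 UMIs in R594C/+ lay in 1 cell of replicate 4. Ramp1 (5.77), Trib2 (4.80), Rgcc (3.82), Rflnb (3.59) and Tubb2a (3.46) completed the highest ratios over memory-like CD8 T cells.

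Antibody tags placed naive CD8 T cells between or beside the other populations. CD5, a negative regulator of T cell receptor signalling, was at 40.8 ± 4.68 tag UMIs per cell, below memory-like CD8 (52.9 ± 6.95) and naive CD4 T cells (110 ± 12.7) in 9 of 9 replicates. Cd5 transcripts had the same order (79.5 ± 15.7, 157 ± 25.8 and 292 ± 46.2 CPM). CD103, the integrin chain encoded by Itgae, was at 1.89 ± 0.437 tag UMIs, against 0.247 ± 0.188 in naive CD4 and 0.314 ± 0.110 in memory-like CD8 T cells, and Itgae transcripts were at 44.1 ± 18.5, 3.95 ± 4.82 and 6.72 ± 3.20 CPM. Ly6C was lower than in memory-like CD8 T cells (2.96 ± 0.642 against 15.2 ± 4.36), as was the integrin CD11a (10.8 ± 1.61 against 27.3 ± 4.36), in 9 of 9 replicates each. Within naive CD8 T cells CD5 spread from 10 to 89.85 tag UMIs (5th to 95th percentile), 36.4% of cells had no CD103 tag and 18.6% no Ly6C tag. The CD44 tag was near 0 in each of the 4 populations (at most 0.0152 UMIs per cell in any replicate) and cannot grade activation here.

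**Figure D1:**
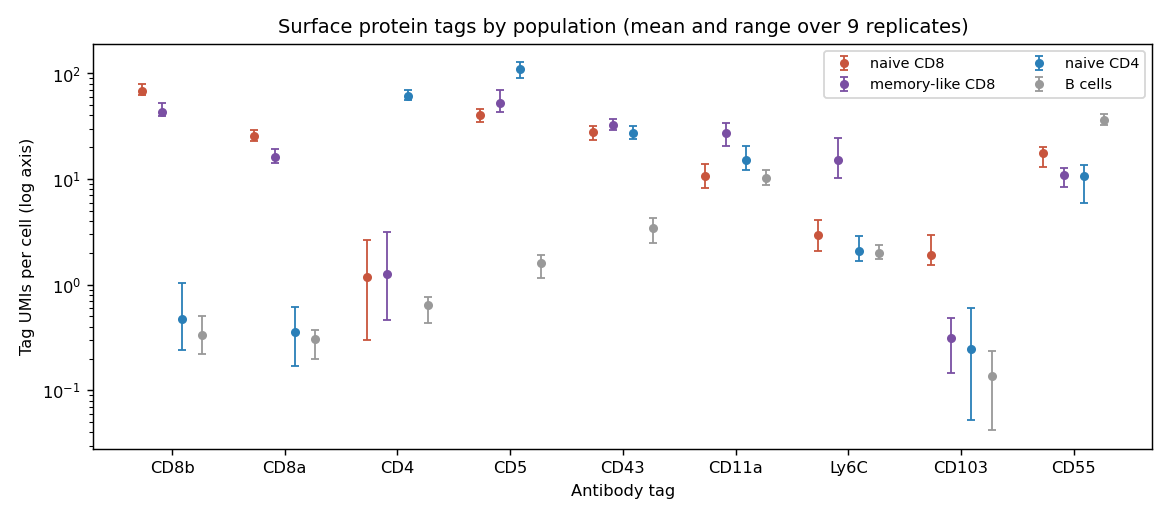
Antibody tag UMIs per cell (log axis) for 9 tags in naive CD8, memory-like CD8 and naive CD4 T cells and B cells; points are means and bars the lowest to highest of 9 replicates. CD8b is at 62.7 to 79.9 in naive CD8 and 0.239 to 1.04 in naive CD4 T cells, and the range of CD103 in naive CD8 T cells lies above the other 3.

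The abundance of naive CD8 T cells varied more within R594C/+ than between genotypes. In WT, replicates 1 to 4 held 74, 98, 96 and 85 of these cells, or 2.41%, 2.35%, 2.85% and 2.64% of assigned cells. In R594C/+ they held 7, 35, 248 and 124, or 0.217%, 1.07%, 5.29% and 2.74%. In R594C/R594C they held 177 and 380, or 2.35% and 4.67%. The 4 WT values lay within the range of R594C/+, and 1 of the 2 R594C/R594C replicates was as low as the lowest WT value. The means were 2.56% ± 0.230 (SD, n = 4), 2.33% ± 2.23 (SD, n = 4) and 3.51% ± 1.64 (SD, n = 2).

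Other denominators gave no difference past the tests either. As a share of T cells, naive CD8 T cells of WT made up 8.58% ± 0.723, those of R594C/+ 6.995% ± 5.62 and those of R594C/R594C 12.2% ± 2.53. By this measure both R594C/R594C replicates (10.4% in the lower) lay above the 4 WT replicates (7.63% to 9.33%), and R594C/+ ran from 0.962% to 13.7%. Of naive plus memory-like CD8 T cells they made up 39.4% ± 12.5, 32.9% ± 21.3 and 58.1% ± 16.8. The trend from WT over R594C/+ to R594C/R594C was tested by exact permutation, with 3150 possible assignments. It gave r = 0.20 (two-sided p = 0.58) for assigned cells and r = 0.27 (p = 0.46) for T cells. For naive plus memory-like CD8 T cells it gave r = 0.31 (p = 0.39). All 3 had an adjusted p of 0.58. An exact permutation test of any difference between the 3 genotypes gave p = 0.76, 0.32 and 0.30 in the same order (adjusted 0.76, 0.48 and 0.48). When cells were thinned to 1500 RNA UMIs each and shallower cells left out, the shares of assigned cells were 1.55%, 1.30%, 1.90% and 2.25% in WT, 0.161%, 1.22%, 3.55% and 1.49% in R594C/+ and 1.62% and 2.46% in R594C/R594C. The 3 trends were then r = 0.093, 0.20 and 0.14 (exact permutation p = 0.81, 0.59 and 0.71, adjusted 0.81 each). Without R594C/R594C replicate 2 the trend over assigned cells turned to r = -0.078. With 2 replicates against 4, the smallest two-sided p that permutation allows is 0.0667.

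**Figure D2:**
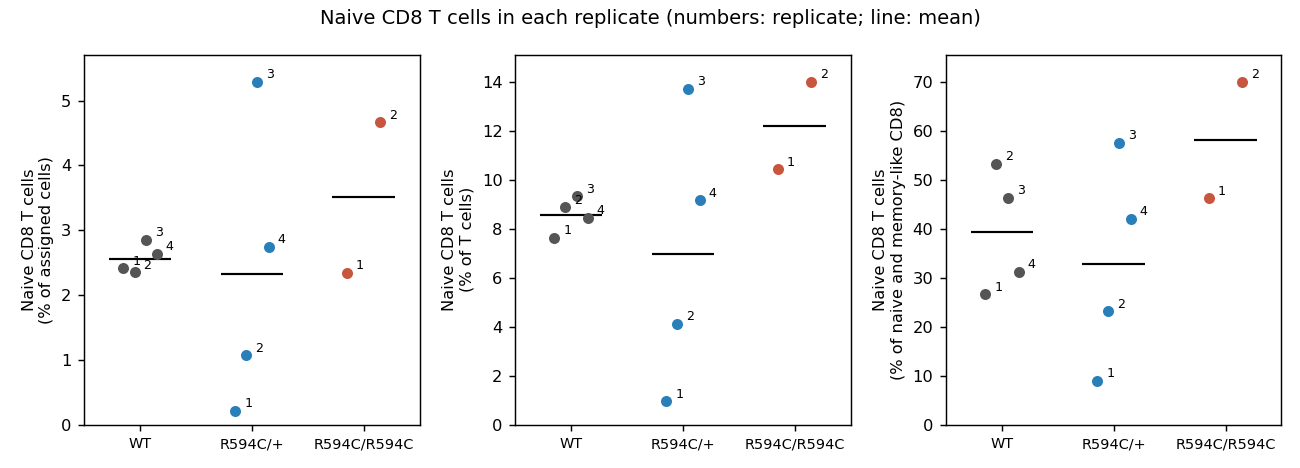
Share of naive CD8 T cells in each of 10 hashtagged replicates by genotype, in percent of the denominator named on each axis, numbered by replicate, with a line at the group mean. R594C/+ spans 0.217% to 5.29% of assigned cells and encloses all 4 WT replicates.

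Replicates with a high naive share among CD8 T cells also had one among CD4 T cells. The naive share ran from 7.07% to 43.3% of CD8 T cells and from 29.7% to 63.0% of CD4 T cells, and the shares correlated over 10 replicates (Pearson r = 0.88, permutation p = 0.00079; Spearman rho = 0.83, permutation p = 0.0046; 1 relation computed). Both naive rules used Lef1 and the same limits on Ccl5 and Nkg7, so the shares are not independent measures. The p-values do not account for this, and how much of the relation comes from the shared limits was not tested. Without R594C/+ replicate 1 and R594C/R594C replicate 2, which lay farthest from the median, r was 0.69. The 3 captures held 4, 4 and 2 replicates, too few for a firm value within 1 capture. Within WT r was 0.72 (exact permutation p = 0.29) and within R594C/+ 0.96 (p = 0.042), with 24 arrangements each. With each capture's mean subtracted from both shares, r was 0.93 (p = 0.0052, exact permutation within captures, 1152 arrangements), an alternative added after seeing the data.

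The targeted gene was at the limit of detection. Ern1 (chr11:106397620-106487796, GRCm38) gave 6 UMIs in the WT, 5 in the R594C/+ and 9 in the R594C/R594C replicates that were tested, so it passed no filter. The libraries read transcript 3′ ends, and the count of Ern1 neither shows the amino acid change nor checks the labels. Xbp1 (chr11:5520641-5525993), whose mRNA IRE1 splices, was at 68.7, 44.4, 62.9 and 42.0 CPM in WT, 72.7, 45.9 and 44.9 in R594C/+ and 66.7 and 47.4 in R594C/R594C. The groups overlapped, and the log2 difference of R594C/R594C to WT was 0.02 ± 0.25 (SE; edgeR adjusted p = 1.00). Spliced and unspliced Xbp1 cannot be told apart in these counts.

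For the gene contrasts, UMIs were summed over naive CD8 T cells of each replicate and 5724 genes were tested. No gene differed between R594C/R594C and WT by edgeR's quasi-likelihood test at an adjusted p of 0.05 (0% called), while 232 genes had an unadjusted p under 0.05, and DESeq2 also called 0. Between R594C/+ and WT, 9 genes passed (0.157% of genes tested): 8 rose (0.14%) and 1 fell (0.0175%). Between R594C/R594C and R594C/+, 7 passed (0.122%): 1 rose (0.0175%) and 6 fell (0.105%). These last 2 contrasts share the R594C/+ replicates, so their lists are not independent of each other. None of the called genes belonged to the lists of the naive T programme, T cell receptor chains, memory and effector genes, interferon responses or ER chaperones.

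Immunoglobulin transcripts of B and plasma cells made up 2 of the 9 calls between R594C/+ and WT and 4 of the 7 between R594C/R594C and R594C/+. Igkc, the kappa light chain constant gene (chr6:70726435-70726754), was at 856, 1022, 998 and 826 CPM in WT, 1309, 1804 and 1457 in R594C/+ and 617 and 682 in R594C/R594C. The 3 groups did not overlap: R594C/+ was highest and R594C/R594C lowest. It rose by 0.73 ± 0.10 (log2, SE) from WT to R594C/+ (edgeR adjusted p = 0.00016) and was -1.25 ± 0.13 in R594C/R594C relative to R594C/+ (adjusted p = 1.1e-07). Relative to WT, R594C/R594C was at -0.52 ± 0.12, which did not pass (adjusted p = 0.24).

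For 3 IgG constant genes the mean was again highest in R594C/+ and lowest in R594C/R594C. Ighg2c (chr12:113287389-113288932), which encodes an IgG2c constant region, was at 31.2, 28.1, 23.6 and 22.4 CPM in WT, 66.1, 55.3 and 58.0 in R594C/+ and 8.69 and 7.91 in R594C/R594C. R594C/R594C lay at -2.80 ± 0.34 relative to R594C/+ (edgeR adjusted p = 1.1e-07), and the rise from WT to R594C/+ missed the threshold (1.13 ± 0.28, adjusted p = 0.076). Ighg2b (chr12:113304314-113307933) was at 43.9 ± 5.98, 51.1 ± 6.44 and 20.4 ± 1.86 CPM and fell by 1.41 ± 0.29 between R594C/+ and R594C/R594C (adjusted p = 0.014). Ighg1 (chr12:113326541-113330523) fell by 3.36 ± 0.71 in the same contrast (adjusted p = 0.017) with 24.6 ± 15.5 and 2.77 ± 0.186 CPM. Jchain (chr5:88519809-88527897), the joining chain of IgM and IgA, was at 59.4, 63.1, 99.5 and 81.2 CPM in WT and 139, 129 and 159 in R594C/+, and rose by 0.90 ± 0.18 (adjusted p = 0.011). Igha was not called and had another order, with 32.4 ± 4.63, 56.4 ± 3.66 and 62.8 ± 10.9 CPM in WT, R594C/+ and R594C/R594C. Both smaller IgG calls were lost in 5 alternative settings. Ighg1 lost it without R594C/R594C replicate 1 (adjusted p = 0.055) or 2 (0.28) and reached 0.64 with the replicate block. Ighg2b lost it without R594C/+ replicate 3 (adjusted p = 0.25) or without R594C/R594C replicate 1 (0.055) or 2 (0.69). Jchain lost it in 3 settings, among them without WT replicate 1 (edgeR adjusted p = 0.066) or R594C/+ replicate 4 (0.17). DESeq2 did not call Ighg1, Ighg2b or Jchain in these contrasts (DESeq2 adjusted p = 0.14, 0.38 and 0.078).

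Summed B cell and plasma cell markers were also highest in R594C/+, but WT and R594C/R594C did not have the same order in both lists. Igkc had 62990 ± 12626 CPM in WT B cells, 96564 ± 19122 in R594C/+ and 40787 ± 7617 in R594C/R594C, and in naive CD4 T cells 913 ± 76.0, 1702 ± 78.6 and 648 ± 0.264. The order of the 3 genotypes was the same in all 3 populations. Over the B cell marker list, 18 of 18 genes were detected in naive CD8 T cells of every genotype, and their summed level ran from 1971 to 2606 CPM in WT, 2664 to 3682 in R594C/+ and 1629 to 2254 in R594C/R594C. The immunoglobulin and plasma cell list (12 genes, Mzb1 at 0 in R594C/R594C) summed to 294 to 372 CPM in WT, 423 to 503 in R594C/+ and 364 to 390 in R594C/R594C. Igkc was found in 336 of 353 WT naive CD8 T cells (95.2%). How much of the Igkc in naive CD8 T cells was free RNA or came from attached cells was not tested. Whether the B cell sums differed apart from Igkc was not tested either.

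The other calls between R594C/+ and WT were a cell cycle inhibitor, an antioxidant enzyme, 3 genes known from macrophages and other myeloid cells, a predicted gene and a ribosomal protein gene. Cdkn1a (chr17:29090979-29100722), which encodes the inhibitor p21, was at 6.25, 18.7, 5.24 and 11.2 CPM in WT, 79.3, 44.9 and 48.6 in R594C/+ and 11.6 and 19.8 in R594C/R594C. It rose by 2.22 ± 0.38 (edgeR adjusted p = 0.00046) and fell by 1.59 ± 0.33 between R594C/+ and R594C/R594C (adjusted p = 0.014). Slpi (chr2:164354070-164356507), a secreted protease inhibitor, was at 11.4 ± 2.63, 53.5 ± 6.34 and 8.96 ± 0.374 CPM and rose by 2.26 ± 0.34 (adjusted p = 0.00011), and fell by 2.61 ± 0.34 in R594C/R594C (adjusted p = 1.0e-06). Apoe (chr7:19696244-19701310), an apolipoprotein of macrophages, rose by 2.29 ± 0.42 (adjusted p = 0.025). The iron exporter gene Slc40a1 (chr1:45908070-45926532) was called higher (adjusted p = 0.031) on 2 UMIs in WT and 52 in R594C/+. Gpx1 (chr9:108339080-108340342), glutathione peroxidase, was at 126 ± 17.2, 288 ± 82.8 and 213 ± 71.6 CPM and rose by 1.10 ± 0.18 (adjusted p = 0.0018). Of these, Apoe lost its call in 8 of 17 alternative settings, among them without WT replicate 2, 3 or 4 (adjusted p of 0.14, 0.27 and 0.14) or R594C/+ replicate 2 (0.078). Slc40a1 lost it in 6 of 13, among them without WT replicate 1 (edgeR adjusted p = 0.065) or 2 (0.057) and in DESeq2 (0.094). Gpx1 lost its call in 4 of 17 and the rise of Cdkn1a over WT in 2 of 15. Each of the 2 Slpi calls was lost in 2 of 17, among them without the cells of highest RNA content. The log2 differences of Slpi were then 1.37 and -1.56 (edgeR adjusted p = 0.82 and 0.61). In that setting Apoe (log2 difference 0.67) and Gpx1 (0.49, edgeR adjusted p = 0.81) were not called over WT either. With a sex term the rises of Gpx1 (edgeR adjusted p = 0.15), Cdkn1a (0.23), Apoe (0.23) and Slc40a1 (0.80) over WT were not called. The lower Cdkn1a of R594C/R594C against R594C/+ lost its call in 6 of 15. Its edgeR adjusted p was 0.10 without R594C/+ replicate 4 and 0.91 (log2 difference -1.25) with the stricter hashtag rule. In DESeq2 the adjusted p was 0.38. Without R594C/R594C replicate 1 or 2, which leaves 1 replicate in that group, the log2 difference was -1.37 or -2.12.

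Single cells carried part of those counts. In R594C/+, 1 cell held 29 of 52 Slc40a1 UMIs, 31 of 137 Apoe UMIs were in 1 cell, and for Slpi and Cdkn1a the highest cell held 27 of 94 and 20 of 81. Of the neutrophil genes, 1304 of 1358 S100a8 UMIs lay in 1 cell of R594C/+ replicate 4, and 1651 of 2263 Hbb-bs (hemoglobin) UMIs lay in 1 cell of R594C/+ replicate 3. Summed neutrophil markers ran from 41.9 to 98.0 CPM in WT, 236 to 9787 in R594C/+ and 85.5 to 226 in R594C/R594C. Summed erythroid markers ran from 67.2 to 96.9, 238 to 4294 and 185 to 2161 CPM. Summed monocyte and macrophage markers, 14 genes that include Apoe, ran from 353 to 921 CPM in WT, 903 to 2299 in R594C/+ and 584 to 964 in R594C/R594C, with Vcan at 0 in WT and R594C/R594C. Of 14 neutrophil genes, which include Slpi, Mmp8 and Wfdc21 were at 0 in WT and, among the 12 erythroid genes, so was Alas2.

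Counts were repeated without the 32 cells (7 WT, 14 R594C/+ and 11 R594C/R594C) that held at least 10 UMIs of 40 neutrophil, monocyte and erythroid genes, a step chosen after their counts were seen. With 5509 genes tested, 11 passed between R594C/+ and WT (0.2%), of which 10 rose (0.182%) and 1 fell (0.0182%). Igkc (0.83), Jchain (0.94), Gm10076 (0.65) and Rps10 (-0.29) passed again, and Ighg2c passed as well (1.17). Gpx1 (0.41), Slpi (1.36) and Apoe (0.64) no longer passed, and Cdkn1a and Slc40a1 were below the filter on low counts. S100a8 (2.68), S100a9 (2.03), Hbb-bs (2.00), Hbb-bt (2.51) and Hba-a1 (1.67) were then called higher, as was Rpl17-ps8 (1.14). The 40 genes that decided which cells were left out include Slpi, Apoe, S100a8, S100a9 and the hemoglobin genes. Calls of these genes, lost or gained here, rest on values used to choose the cells and carry no separate test. Between R594C/R594C and WT, 4 genes then passed (0.0726%; 3 higher, 0.0545%, and 1 lower, 0.0182%): Hbb-bs (2.07), Hbb-bt (2.18), Rps29 (0.24) and, in the other direction, Igkc (-0.46). Between R594C/R594C and R594C/+ 5 genes fell (0.0908%), namely Igkc, Ighg2c, Ighg2b, Ighg1 and Rpl17-ps8.

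Gm10076, a predicted gene (chr14:105681826-105682219), and Rps10, a 40S ribosomal protein gene (chr17:27630415-27635244), were called between R594C/+ and WT, with groups that did not overlap. Gm10076 was at 353, 332, 369 and 361 CPM in WT and 476, 582 and 507 in R594C/+ (0.58 ± 0.12, edgeR adjusted p = 0.011). Rps10 was at 2197, 1969, 1888 and 1949 CPM in WT and 1520, 1596 and 1597 in R594C/+ (-0.35 ± 0.07, adjusted p = 0.013). B cells had the same order for both: 300.5 ± 7.47 and 448 ± 3.24 CPM for Gm10076, and 1248 ± 38.2 and 1007 ± 33.2 for Rps10. Rps29 (chr12:69157722-69159186), also of the 40S subunit, was at 7423 and 7220 CPM in R594C/R594C against 5770, 6407 and 6164 in R594C/+, and rose by 0.25 ± 0.06 (adjusted p = 0.043). It lost the call in 14 of 17 alternative settings. Rps10 lost its call in 8 of 17 (highest adjusted p = 0.34, with R594C/+ replicate 1 included), among them without WT replicate 1 (0.22) or R594C/+ replicate 2 (0.053) or 4 (0.057). Gm10076 lost its call in 3, among them without R594C/+ replicate 3 (adjusted p = 0.19). With a sex term neither Gm10076 nor Rps10 was called (edgeR adjusted p = 0.15 each). Ribosomal protein genes have processed copies elsewhere in the genome, so how reads were divided among copies is uncertain.

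**Figure D3:**
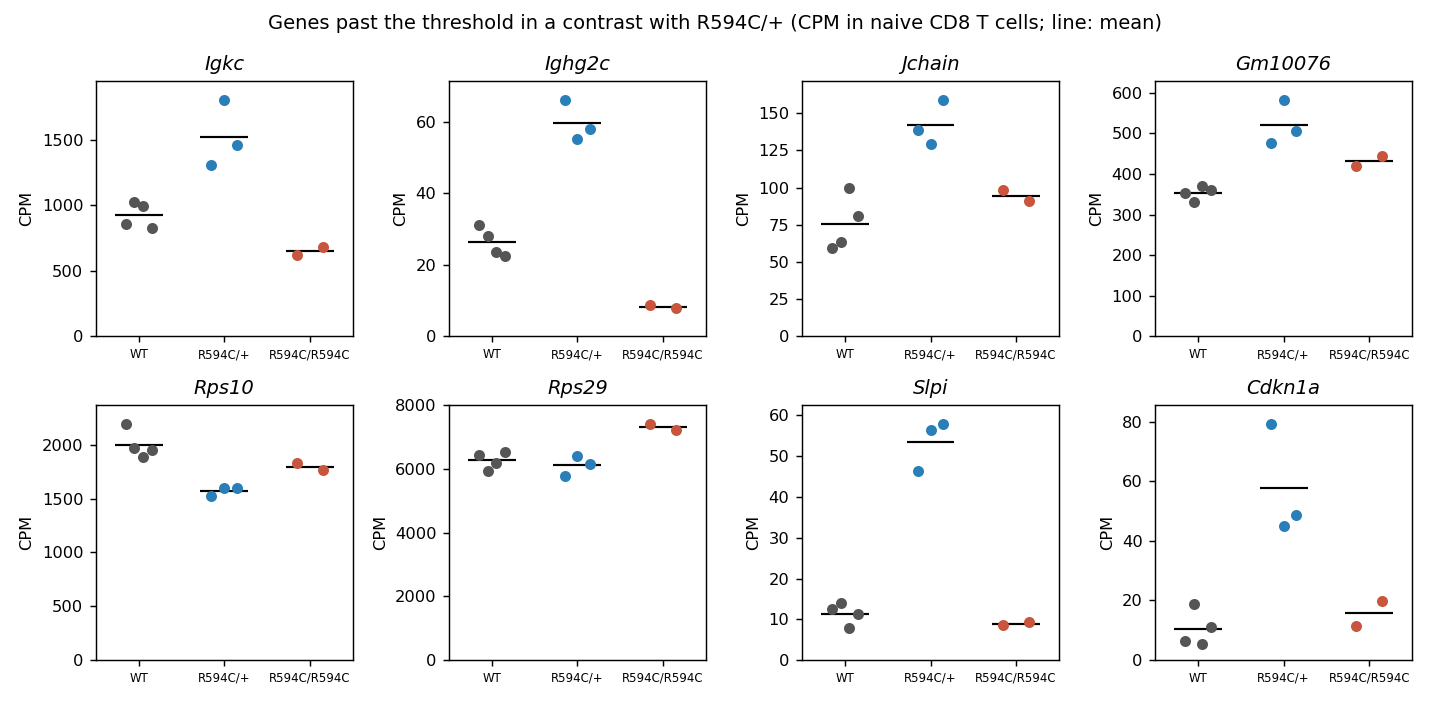
CPM of genes past the threshold in a contrast with R594C/+, 1 point per replicate of naive CD8 T cells (4 WT, 3 R594C/+, 2 R594C/R594C) and a line at the mean, each panel on its own linear axis. Igkc and Ighg2c are highest in R594C/+ and lowest in R594C/R594C without overlap.

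Of genes that mark the naive state, none passed in any contrast. Of 25 tested members of the naive T programme, 10 were above and 15 below 0 in R594C/R594C relative to WT, with a median log2 difference of -0.03, against 2736 above, 2988 below and a median of -0.01 over all 5724 genes. In R594C/+ relative to WT, 5 were above and 20 below (median -0.11, or -0.07 with 8 above without the 32 cells). Tcf7 had 571 ± 25.6 CPM in WT against 496 ± 17.7 in R594C/+ and 521 ± 48.2 in R594C/R594C, and Il7r at 796 ± 39.0, 761 ± 204 and 698 ± 75.6. Of 20 memory and effector genes tested, 12 were above 0 in R594C/R594C relative to WT (median 0.09) and 16 in R594C/+ (median 0.29, or 0.10 with 9 of 14 above without the 32 cells). Lgals1, which encodes galectin 1 and rises when T cells are activated, was at 21.9, 18.7, 23.6 and 39.2 CPM in WT and 44.9 and 68.5 in R594C/R594C (1.19 ± 0.29, edgeR adjusted p = 0.24). Of 22 T cell receptor and coreceptor genes, 14 were below 0 in R594C/R594C (median -0.05) and 18 in R594C/+ (median -0.11).

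Interferon response lists lay mostly below 0, though no member passed. Of 29 genes of the interferon gamma response and MHC class I, 25 were below 0 in R594C/R594C relative to WT (median -0.25), and 7 had an unadjusted p under 0.05. Over all 5724 genes 2988 were below 0 (median -0.01) and 232 (4.05%) had an unadjusted p under 0.05. Of 25 genes of the type I interferon response, 21 were below 0 (median -0.18). In R594C/+ relative to WT, 23 of 29 (median -0.16) and 18 of 25 (median -0.10) were below 0. Both contrasts use the same 4 WT replicates. Without the 32 cells the medians in R594C/R594C were -0.26 and -0.21, and those in R594C/+ -0.12 and -0.26.

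Of the members with the lowest p, B2m, H2-T23 and Slfn5 did not overlap between WT and R594C/R594C, as 10% of all 5724 genes did not (4.82% with R594C/R594C lower). B2m, the MHC class I light chain, was at 2750, 2696, 2603 and 2800 CPM in WT and 2527 and 2223 in R594C/R594C (-0.20 ± 0.07, edgeR adjusted p = 0.88). H2-T23, which encodes the nonclassical class I molecule Qa-1, was at 303, 278, 270 and 274 CPM in WT and 239 and 189 in R594C/R594C (-0.41 ± 0.15, adjusted p = 0.88). Slfn5 was at 28.4 ± 11.2 CPM in WT and 13.8 ± 0.929 in R594C/R594C (-1.05 ± 0.38, adjusted p = 0.88), and at 29.8 ± 17.4 in R594C/+.

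Genes downstream of IRE1 showed small differences. Of 46 tested genes of the XBP1s target and secretory list, 18 were above and 28 below 0 in R594C/R594C relative to WT (median -0.06), and 25 above and 21 below in R594C/+ (median 0.03). Of 13 ER chaperone genes, 10 were below 0 in R594C/R594C (median -0.17) and 7 in R594C/+ (median -0.06). Hspa5, the main ER chaperone BiP, was at 616, 774, 589 and 532 CPM in WT and 514 and 587 in R594C/R594C, and overlapped (-0.20 ± 0.13, edgeR adjusted p = 1.00). Pdia3, a protein disulfide isomerase, was at 144, 159, 147 and 157 CPM in WT and 120.3 and 119.2 in R594C/R594C (-0.35 ± 0.17, adjusted p = 1.00). The 11 tested substrates of IRE1-dependent decay had a median of 0.01 with 6 above and 5 below. Among 6 tested sensors of the unfolded protein response the median was 0.12.

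Growth and stress lists were likewise without a call apart from the ribosomal genes Rps10 and Rps29 given above. Immediate early and heat shock genes, which respond within minutes to stimulation and tissue handling, were above 0 in 21 of 25 cases in R594C/R594C relative to WT (median 0.09) and in 23 of 25 in R594C/+ (median 0.21). Dusp1, a phosphatase of this class, was at 216 to 288 CPM in WT, 258 to 621 in R594C/+ and 325 and 329 in R594C/R594C. Mitochondrially encoded genes were above 0 in 9 of 10 cases in R594C/R594C (median 0.11) and in 1 of 10 in R594C/+ (median -0.13). Sterol synthesis genes were above 0 in 10 of 11 cases in R594C/R594C relative to R594C/+ (median 0.37). Cell cycle genes had a median of 0.27 in R594C/R594C relative to WT, with 11 of 13 above, but of 74 Top2a UMIs in R594C/R594C 49 lay in 1 cell, and without the 32 cells the median was 0.01 with 6 of 11 above.

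**Figure D4:**
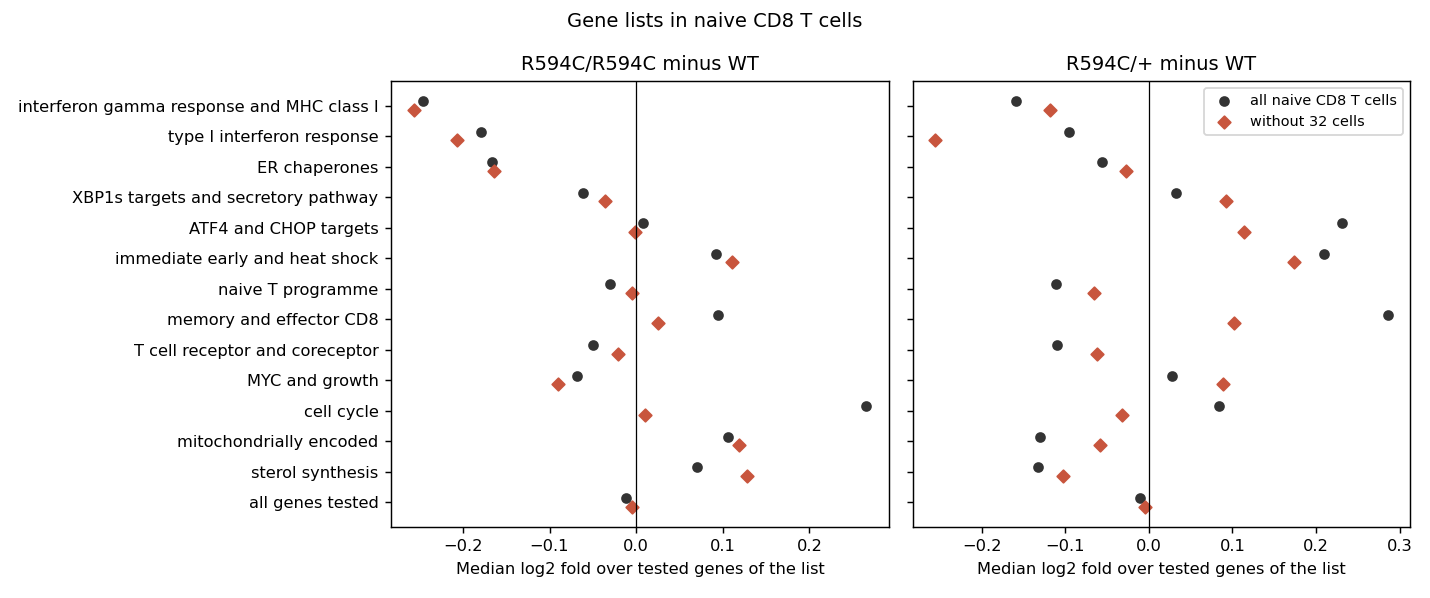
Median log2 difference over the tested genes of each list for R594C/R594C minus WT and R594C/+ minus WT, with all naive CD8 T cells (circles) and without the 32 cells holding transcripts of other lineages (diamonds), beside the median of all genes tested. Both interferon lists have medians below 0 in both contrasts, which share their WT replicates, and the cell cycle median of 0.27 drops to 0.01 without the 32 cells.

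Whether a genotype difference in naive CD8 T cells differed from that in naive CD4 T cells was tested with an interaction over 7025 genes. In edgeR 1 gene passed for R594C/+ (Cxcl2, 0.0142%) and 1 for R594C/R594C (Birc5, 0.0142%), and DESeq2 called 0 in both. The chemokine Cxcl2 had 27 of 31 UMIs in 1 naive CD8 T cell of R594C/+ replicate 3, and Birc5, a mitosis gene, 18 of 32 in 1 cell of R594C/R594C replicate 2. Without the cells that held transcripts of other lineages both interactions had 0 calls (301 and 222 genes at an unadjusted p under 0.05). Igkc differed in its response by -0.15 ± 0.12 for R594C/+ and -0.03 ± 0.13 for R594C/R594C (adjusted p = 1.00 each).

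Antibody tags differed between genotypes much more often than genes, and so did the isotype controls, antibodies with no target on the cells. With 153 tags tested and tag totals scaled by trimmed means (TMM), 59.5% differed between R594C/R594C and WT, 32 higher (20.9%) and 59 lower (38.6%). Per cell, with no scaling of tag totals, 57.5% differed, 2 higher (1.31%) and 86 lower (56.2%). In R594C/+ relative to WT 13.7% differed with TMM, 13 higher (8.5%) and 8 lower (5.23%), and per cell 0 were higher and 52 lower (34%). In R594C/R594C relative to R594C/+ 24.2% differed with TMM, 7 higher (4.58%) and 30 lower (19.6%), and per cell 34% did, 1 higher (0.654%) and 51 lower (33.3%). DESeq2 gave other splits: 43 higher and 43 lower in R594C/R594C relative to WT, 32 and 12 in R594C/+ relative to WT, and 25 and 12 in R594C/R594C relative to R594C/+. Without the cells of highest RNA content the splits with TMM were 41 and 58, 11 and 30, and 23 and 18. The split thus depended on the scaling and on the cells used, and directions below are per cell unless TMM is named.

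The 9 isotype controls summed to 2.51, 2.30, 2.35 and 2.49 UMIs per cell in the WT replicates. They were at 1.43, 1.03, 1.03 and 1.15 in R594C/+ and at 0.446 and 0.242 in R594C/R594C. The 3 groups did not overlap. Of the 5 isotype controls with enough counts to test, all 5 were called lower in R594C/R594C than in WT with either scaling (median log2 difference -2.76 per cell). In R594C/+ 3 were called lower per cell (median -0.92) and 0 with TMM. The tags with the lowest TMM values in R594C/R594C relative to WT were likewise scarce: CD137, an activation receptor of the TNF receptor family, went from 0.544 ± 0.0483 to 0.0247 ± 0.00509 UMIs per cell, and RORg, CD200R3, IL33Ra and TCRg2 started from 0.159 to 0.246 in WT. The 5 tested isotype controls stood at 0.127 to 0.767 UMIs per cell in WT (means of 4 replicates), and the WT levels of these 5 tags lay within that range. The part of staining background in the lower tags was not tested.

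Abundant tags went the other way or differed little. CD8b was at 68.6, 63.7, 67.6 and 67.4 UMIs per cell in WT, 64.9, 62.7 and 68.2 in R594C/+ and 79.9 and 73.1 in R594C/R594C. The R594C/R594C values lay above all others, with a rise of 0.19 ± 0.06 (log2, SE) over WT (edgeR adjusted p = 0.014) and of 0.23 ± 0.06 over R594C/+ (adjusted p = 0.014). CD90 (Thy1), a surface protein of all T cells, was at 22.8, 21.2, 19.6 and 20.8 UMIs in WT and 25.2 and 25.3 in R594C/R594C and was the other tag called higher there. CD5 was at 46.1, 34.9, 35.0 and 36.4 in WT and 44.9 and 46.0 in R594C/R594C (0.25 ± 0.11, adjusted p = 0.075). CD8a (0.20 ± 0.09, adjusted p = 0.10), TCRb (0.36 ± 0.16, adjusted p = 0.080) and CD103 (-0.06 ± 0.28, adjusted p = 0.85) did not pass per cell in R594C/R594C. With TMM, the 5 highest tags among those called in that contrast were TCRb (1.26), CD55 (1.17), CD5 (1.16), CD90 (1.15) and CD11a (1.15). The myeloid tag CD11b had a higher value but was not called (0.284 to 4.07 UMIs per cell in WT, 1.06 and 2.42 in R594C/R594C).

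With TMM, the contrasts with R594C/+ gave some of the same tags and some others. Relative to WT, the lowest called in R594C/+ were RORg (-1.60), CD200R3 (-1.56), CD304 (-1.52), CD137 (-1.40) and the NK receptor CD335 (-1.27), all scarce tags. The highest called were CD39 (1.00), an ectonucleotidase, Ly6A_Ly6E (0.88), Ly6C (0.80), CD11a (0.77) and CD48 (0.73), and these 5 lost the call in 7 to 14 of 19 alternative settings. CD39 was also scarce, at 0.251 ± 0.0769 UMIs per cell in WT and 0.341 ± 0.105 in R594C/+. Per cell, no tag was called higher in this contrast. CD8b was called higher with TMM (0.41), though its mean per cell was 66.8 in WT and 65.3 in R594C/+. In R594C/R594C relative to R594C/+, the lowest were IL33Ra (-3.11), the erythroid tag TER119 (-2.70), TCRg2 (-2.59), CD196 (-2.40) and CD169 (-2.28). The highest were TCRb (0.71), CD8b (0.66), CD5 (0.58), CD31 (0.57) and CD8a (0.55). Of these 5 only CD8b was called in all 19 alternative settings, and the 5 were above 0 in each of them.

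**Figure D5:**
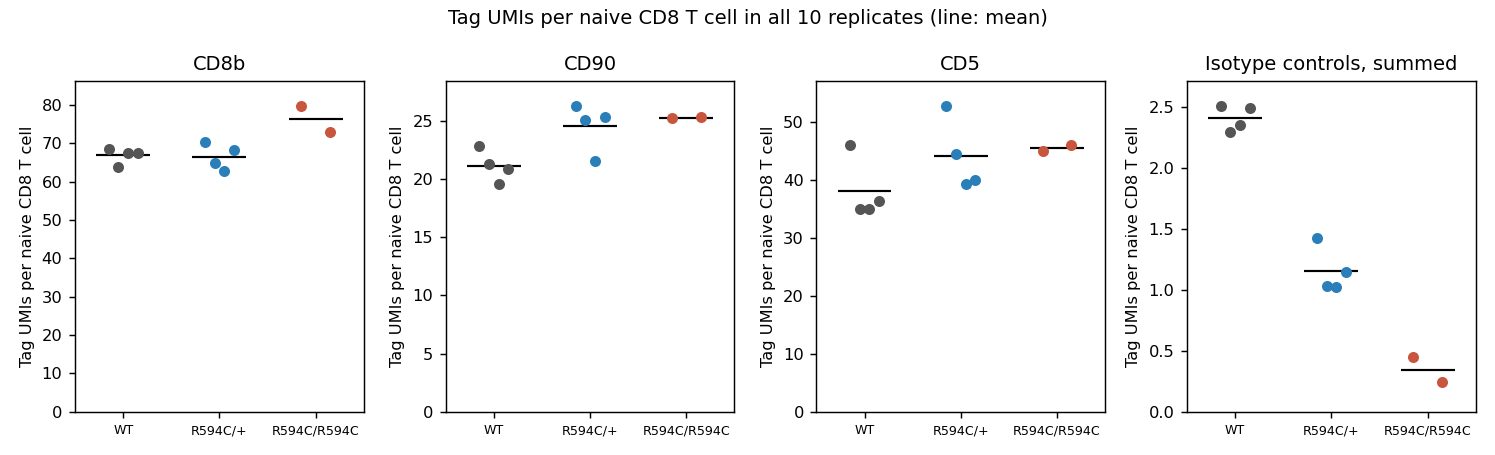
Antibody tag UMIs per naive CD8 T cell by genotype, 1 point for each of 10 replicates and a line at the mean, each panel on its own linear axis. CD8b is highest in the 2 R594C/R594C replicates, and the summed isotype controls step down from WT to R594C/+ to R594C/R594C.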

How the data were processed

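Per the labels' protocols, splenocytes sorted with DAPI went through a 10x 3′ NextGEM kit with TotalSeq-A tags. The authors deposited UMI counts of genes and tags per barcode, from Cell Ranger 5.0.0 per the file headers, with STAR, Seurat 3.1.4 and mm10 named in the submitters' processing notes. Members and gene lists were chosen with earlier results of these data known.

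A cell was assigned when its top hashtag of 4 had at least 20 UMIs and 3 times the next; hashtag doublets were left out, and no doublet caller was run. Counts were summed per replicate (at least 10 cells) and tested with edgeR 4.0.16 (TMM, filterByExpr; robust quasi-likelihood; tags with a mean of at least 10 UMIs; Benjamini-Hochberg, 0.05), without a replicate block. SE is the log2 difference over the root of F. Alternatives were DESeq2 1.42.0, a stricter hashtag rule, no low-count filter, sex or replicate terms, thinning to 1500 RNA UMIs (shares), leaving out high-RNA cells or single replicates and, chosen after seeing the data, tags per cell or per total tag UMI, R594C/+ replicate 1 included, capture means subtracted (shares), and cells with other-lineage transcripts left out. Scripts were tested on simulated data.

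Same-numbered replicates of different genotypes correlated at -0.08 to 0.19 and were not treated as pairs. The rule named Ern1, Xbp1, all called genes where 16 or fewer, the 5 highest and 5 lowest called tags, list members that were called or up to 4 with the lowest p in R594C/R594C minus WT (a few of these are given), markers, and the 10 genes with the highest ratios over naive CD4 or memory-like CD8 T cells; some were named for their known role. Gene positions come from RefSeq's table for GRCm38.p6, matched by symbol.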

Additional observations from a re-analysis of the deposited data

Results flagged for a closer look

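Of 42 groups of 4 replicates examined for a value far from the other 3, 3 had one, and chance gives about 1 in 20. In WT naive CD8 T cells Slc40a1 was at 5.24 CPM in replicate 3 and listed at 0 in the other 3. The CD5 tag was at 46.1 UMIs per cell in WT replicate 1, against 34.9 to 36.4 in the others. The TCRb tag was at 4.00 UMIs per cell in WT replicate 4, against 3.22 to 3.31 in the others.

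The genotype difference was larger in naive CD8 than in naive CD4 T cells for Cxcl2 in R594C/+ (interaction of 7.88, log2) and for Birc5 in R594C/R594C (4.89). Naive CD8 T cells of WT had no Cxcl2 UMI, so its value depends on the fit and is no bound. Most UMIs of each lay in 1 cell, and neither passed without the cells holding transcripts of other lineages.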

How the results depend on the processing

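Igkc was called in both contrasts with R594C/+, and Ighg2c between R594C/R594C and R594C/+, under all 17 alternatives. Main counts of called genes were 0 (R594C/R594C minus WT), 9 (R594C/+ minus WT) and 7 (R594C/R594C minus R594C/+). For R594C/R594C minus WT the count was 1 without high-RNA cells, 1 with a sex term, 15 without the low-count filter and 4 without cells of other-lineage transcripts. For R594C/+ minus WT it was 5 with the stricter hashtag rule, 7 with a sex term, 15 in DESeq2 and 49 without the filter. With the sex term Rps10, Gm10076, Gpx1, Cdkn1a, Apoe and Slc40a1 lost their calls in this contrast. For R594C/R594C minus R594C/+ the count was 4 with the stricter rule, 12 with a sex term, 4 in DESeq2 and 28 without the filter. With a replicate block, which rests on shared numbers only, the 3 counts were 8, 36 and 24. Leaving out 1 replicate gave 0 to 17 (17 without R594C/R594C replicate 1), 7 to 20 and 3 to 16. Called tags of R594C/+ minus WT (21) numbered 5 with the stricter rule, 41 without high-RNA cells, 62 with the replicate block, 0 with a sex term, 44 in DESeq2, 11 without the filter, 51 without cells of other-lineage transcripts, 10 with R594C/+ replicate 1, 52 per cell, 54 per total tag UMI and 6 to 47 with 1 replicate left out. For R594C/R594C minus R594C/+ (37) they were 57 per total tag UMI and 14 to 39 with 1 replicate left out, and for R594C/R594C minus WT (91) 74 to 98.
The interaction for R594C/+ (1 gene) had 0 calls with the stricter rule, without high-RNA cells, without cells of other-lineage transcripts and in DESeq2, 2 without the filter and 0 to 2 with 1 replicate left out; that for R594C/R594C (1 gene) had 0 in the last 3 of those, 7 without the filter and 0 to 11. The trends of the 3 shares ranged over r = -0.078 (without R594C/R594C replicate 2) to 0.31, 0.018 to 0.46 and 0.0059 to 0.46 with 1 replicate left out. Xbp1, never called, changed sign in R594C/R594C minus WT without WT replicate 2 (-0.06), WT replicate 4 (-0.09) or R594C/R594C replicate 1 (-0.19) and with the replicate block (-0.12), in R594C/+ minus WT with a sex term (0.18), and in R594C/R594C minus R594C/+ without R594C/R594C replicate 1 (-0.059), with the block (-0.12) and with a sex term (-0.024); it was at 0.29 and 0.42 in the contrasts of R594C/R594C with WT and R594C/+ without R594C/R594C replicate 2. The cause of these changes was not tested. Summed RNA ran from 151300 UMIs (R594C/+ replicate 2) to 1518003 UMIs in the tested replicates, which limits what genes of few counts can show.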
